A study of Mus musculus with 49 samples.

Results

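The glutathione transferases and the targets of the transcription factor NRF2 were described as a set of 34 genes, of 21517 named genes measured in mouse liver on a custom Affymetrix array of 43681 probe sets. The members were taken by name. They were the 23 glutathione transferases of the alpha (4 genes), mu (7), pi (1), theta (4), kappa (1), omega (2) and zeta (1) classes and of the microsomal family (3), together with 9 enzymes known as NRF2 targets, NRF2 itself (Nfe2l2) and its inhibitor Keap1. The rule itself used no measured value, but the set was proposed with earlier results of these data known. One probe set stood for each gene, the brightest over all 49 samples. Levels are log2 of the deposited intensity, where 0 is the mean intensity of the array, and they are compared between samples for one probe set and never between probe sets.

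The study followed liver tumors driven by overexpression of human MET, a receptor tyrosine kinase, in FVB mice, with 6 groups of samples. Young livers came from 7 TRE-MET mice at 6 weeks and 7 LAP-tTA mice at 7 weeks. Older livers, all from 14 weeks, came from tumors (14, with 2 from each of 7 MET mice), from non-tumor tissue adjacent to a tumor (7) and distant from it (7) in those same mice, and from 7 mice labelled WT. Per the study's methods, a MET mouse carried 1 copy of LAP-tTa, the tet transactivator under the liver-specific LAP promoter, and 1 copy of the tet-regulated human MET transgene, while the LAP-tTA strain carried 2 copies of LAP-tTa and no MET transgene. MET expression was therefore meant to be confined to the liver and present throughout it, and the transgenic controls carried the transactivator as well. The labels give the genotype of the TRE-MET mice only as Tre-c-Met, while the titles of the 14-week MET samples name both LAP-tTA and Tre-met. The labels also call the 14-week controls WT where the methods name the LAP-tTA strain as control, so the values below follow the labels. A young mouse, TRE-MET 1, is titled 6 weeks although its age field reads 14 weeks. Young MET and control livers also differed by 1 week of age, which cannot be told apart from genotype.

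Glutathione transferases join glutathione to electrophiles, among them drugs, carcinogens and products of lipid peroxidation, and several also reduce organic peroxides. Liver holds large amounts of them. Their transcription, and that of enzymes which make and recycle glutathione or reduce quinones and thioredoxin, is raised by NRF2, which KEAP1 marks for degradation until electrophiles or oxidants modify KEAP1. NRF2 then binds antioxidant response elements with a small MAF partner. Many of the same genes also answer to the nuclear receptors CAR and PXR, and the expression of several differs between male and female mouse liver.

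Promoters of the members were searched for the core of that element, TGACNNNGC on either strand, in 300 bases around each annotated start (250 before, 50 after; RefSeq, mouse build GRCm38.p6). Of the 29 members found in the promoter table, 8 held a match: Gclm, Gsta3, Gstm5, Gstm7, Mgst1, Nfe2l2, Srxn1 and Txnrd1. A match was present in 12.4% of all 32851 windows and for 14.0% of 27025 genes. The promoters of 3 matched members whose levels moved most clearly in the results below are shown with that of Gstm2, which moved as clearly and held none. Capitals mark the match.
Srxn1, chr2:152105274-152105573, plus strand: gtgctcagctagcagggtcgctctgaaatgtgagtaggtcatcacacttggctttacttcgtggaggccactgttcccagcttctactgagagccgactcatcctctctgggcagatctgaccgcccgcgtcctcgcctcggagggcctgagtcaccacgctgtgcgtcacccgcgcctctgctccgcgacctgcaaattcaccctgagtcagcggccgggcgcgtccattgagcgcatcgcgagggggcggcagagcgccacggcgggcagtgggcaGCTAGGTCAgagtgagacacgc
Gstm5, chr3:107895604-107895903, plus strand: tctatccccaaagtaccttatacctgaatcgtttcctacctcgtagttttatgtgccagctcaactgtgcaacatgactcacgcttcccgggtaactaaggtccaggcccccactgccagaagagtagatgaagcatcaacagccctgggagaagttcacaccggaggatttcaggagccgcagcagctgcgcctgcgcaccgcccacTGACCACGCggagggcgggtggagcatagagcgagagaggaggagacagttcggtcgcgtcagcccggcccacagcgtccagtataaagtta
Nfe2l2, chr2:75704614-75704913, minus strand: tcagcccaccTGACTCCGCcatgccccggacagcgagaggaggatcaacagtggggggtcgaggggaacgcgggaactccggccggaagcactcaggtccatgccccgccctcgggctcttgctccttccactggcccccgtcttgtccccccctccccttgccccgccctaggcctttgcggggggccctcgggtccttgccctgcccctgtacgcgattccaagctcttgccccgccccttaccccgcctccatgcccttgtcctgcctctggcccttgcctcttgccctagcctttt
Gstm2, chr3:107986371-107986670, minus strand: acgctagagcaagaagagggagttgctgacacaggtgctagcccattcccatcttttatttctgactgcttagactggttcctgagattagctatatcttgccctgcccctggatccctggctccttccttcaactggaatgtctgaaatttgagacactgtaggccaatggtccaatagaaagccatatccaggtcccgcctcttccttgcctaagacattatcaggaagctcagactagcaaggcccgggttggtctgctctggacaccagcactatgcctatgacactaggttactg
The match in Gstm5 began 42 bases before the start and that in Nfe2l2 240 bases before it, both on the gene's strand. That in Srxn1 began 29 bases after the start, on the opposite strand. A match is a string of letters in this window, not a binding site. Only this core was searched, so a window without a match can still hold another form of the element.

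The arrays were alike in scale, with a mean intensity of 1 and medians between -3.42 and -3.20 on the log2 scale. Gstt4 was dim throughout, at the 16.3 percentile of mean level, and Mgst2 lay at the 40.8 percentile. The other members were at or above the 65.0 percentile. For 8 members (Gsta1, Gsta2, Gsta3, Gstm1, Gstm3, Gstp1, Keap1 and Mgst2) the probe set name carries the maker's usual mark for probes shared between transcripts, so signal from a close paralog cannot be separated there. The human transgene was not read by a probe set used here. The mouse Met probe sets, chosen after their values were seen, had medians of 2.46 and 0.03 in TRE-MET livers and 1.85 and -0.01 in LAP-tTA livers. Tumor 1b stood apart from the rest, with a correlation of 0.952 to the mean of the tumors of other mice, against 0.986 to 0.996 for the other 13. It also held the highest summed intensity of Kupffer cell and macrophage markers (143) and of stellate cell and fibroblast markers (313) among the tumors, where the medians were 26.0 and 48.7.

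The groups also differed in a feature that the labels do not give. Xist, the RNA made from the inactive X chromosome, and Eif2s3y, a gene on the Y chromosome, were examined after the values had been seen. Xist was bright (1.14 to 1.96) with Eif2s3y dim in the tissues of 4 of 7 MET mice (3, 4, 5 and 6) and in 2 of 7 WT livers. In the other 3 MET mice, the other 5 WT livers and all TRE-MET and LAP-tTA livers, Xist was at most -4.57 and Eif2s3y was bright. Young livers were thus alike in this respect and the 14-week groups were not. The 14-week comparisons were therefore also run within livers that had Xist signal (4 MET mice and 2 WT mice) and within those that had none (3 MET mice and 5 WT mice), and the members whose calls changed are named. These settings, and a fit with Xist as a covariate, were chosen after seeing the data.

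In young livers, 18 of 34 members differed between TRE-MET and LAP-tTA mice, 16 lower and 2 higher. Among all named genes 9.36% were called, 5.04% lower and 4.32% higher. That background, here and below, includes dim genes, while the members other than Gstt4 and Mgst2 were at or above the 65.0 percentile of mean level. No background matched for level was made, so the shares are not of like sets. The median change of the members was -0.30, against 0.01 over all named genes (log2, TRE-MET minus LAP-tTA). In the alpha class 3 of 4 genes were lower, with a class median of -1.85, and in the mu class 6 of 7, with a class median of -1.01. None of the 23 transferases was higher. For 12 members the 7 TRE-MET and 7 LAP-tTA livers did not overlap, a count that was not made over all named genes.

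Gsta1, an alpha class transferase whose level in mouse liver is known to follow inducers, was -4.65, -3.74 and -1.99 in TRE-MET livers (lowest, median and highest) and -0.60, -0.19 and 0.71 in LAP-tTA livers. Every TRE-MET liver lay below every LAP-tTA liver, and the change was -3.58 ± 0.30 (log2 change ± SE, n = 7 each, as throughout; limma adjusted p = 1.16e-07). Gsta2, its close paralog, was -3.43, -2.29 and 0.71 in TRE-MET livers and 1.31, 1.57 and 1.79 in LAP-tTA livers. The spread among the TRE-MET livers was wide for Gsta2, but none reached the LAP-tTA range (-3.31 ± 0.51, adjusted p = 0.000255). Gsta3, an alpha form that detoxifies the aflatoxin epoxide in mice, passed the threshold narrowly (-0.38, adjusted p = 0.0465), and left it when any single LAP-tTA liver was omitted (adjusted p = 0.0661 to 0.0909). Gsta4, which conjugates the lipid peroxidation product hydroxynonenal, had medians of 2.57 in TRE-MET and 2.83 in LAP-tTA livers, with overlapping groups (-0.08, adjusted p = 0.875).

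Within the mu class, Gstm5 showed the clearest separation. It was 0.27, 0.49 and 0.87 in TRE-MET livers and 3.04, 3.43 and 3.95 in LAP-tTA livers (-2.92 ± 0.13, adjusted p = 1.13e-11). Gstm1, an abundant mu form of mouse liver, was 3.51, 3.85 and 4.78 in TRE-MET livers and 4.81, 5.06 and 5.36 in LAP-tTA livers (-1.01 ± 0.16, adjusted p = 0.000426). Gstm3 was 0.76, 1.37 and 2.17 in TRE-MET livers against 2.43, 2.58 and 3.14 in LAP-tTA livers (-1.23 ± 0.19, adjusted p = 0.000336). Groups did not overlap for these 3 genes, nor for Gstm4 (-0.99 ± 0.11, adjusted p = 5.46e-06) and Gstm6 (-1.10 ± 0.19, adjusted p = 0.000647). Gstm2 was -0.46, -0.15 and 0.72 in TRE-MET livers and 0.24, 0.80 and 1.27 in LAP-tTA livers, overlapping groups with a change of -0.80 ± 0.18 (adjusted p = 0.00716). Gstm7 had medians of 2.29 in TRE-MET and 2.47 in LAP-tTA livers and was not called.

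**Figure D1:**
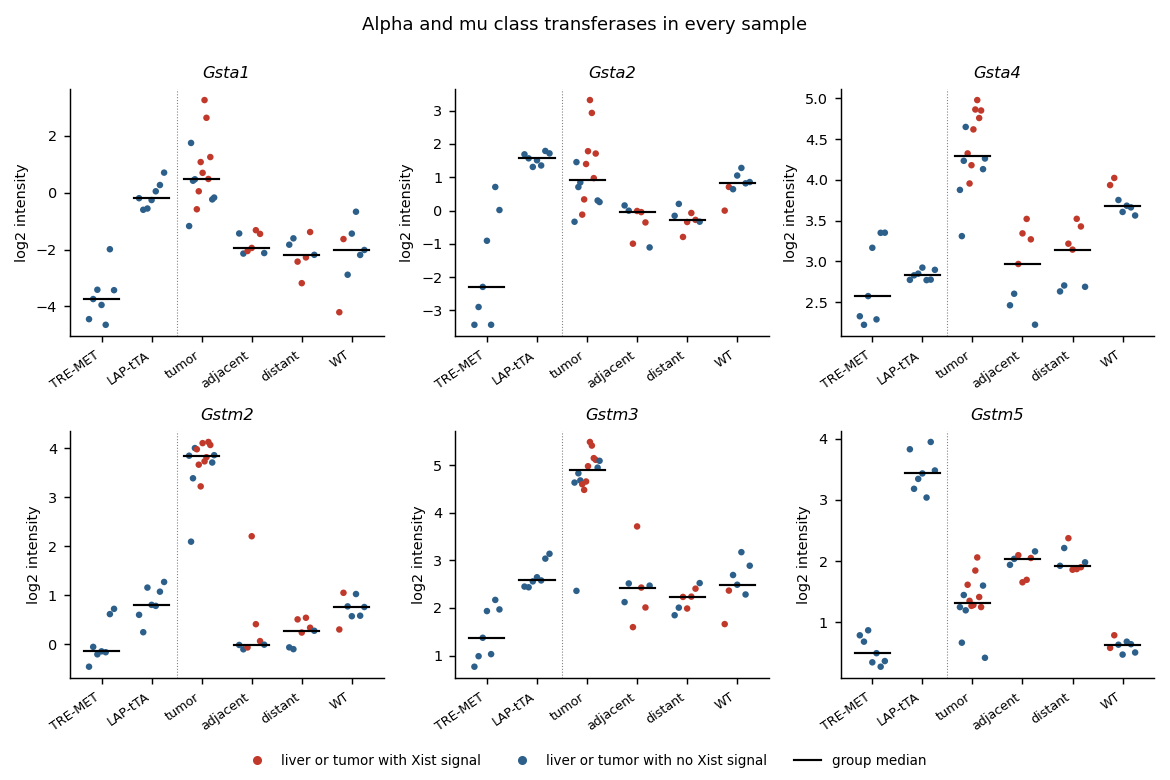
Log2 intensity (y axis) of 6 alpha and mu class transferases in every sample, with groups along the x axis as TRE-MET, LAP-tTA, tumor, adjacent, distant and WT. Points are samples, red with and blue without Xist signal, and bars are group medians. Gsta1 and Gstm5 lie lower in all 7 TRE-MET livers than in any LAP-tTA liver, and Gstm2 lies higher in all 14 tumors than in any WT liver.

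Other classes moved less. Gsto1, an omega form that reduces dehydroascorbate, was 1.84, 2.23 and 2.87 in TRE-MET livers and 3.10, 3.18 and 3.32 in LAP-tTA livers (-0.86 ± 0.13, adjusted p = 0.000235). Gstt2 of the theta class was 0.95, 1.35 and 1.82 in TRE-MET livers and 2.14, 2.34 and 2.46 in LAP-tTA livers (-0.91 ± 0.11, adjusted p = 1.35e-05). Mgst3, a membrane-bound enzyme with peroxidase activity, was -0.92, -0.59 and -0.25 in TRE-MET livers and -0.11, 0.10 and 0.62 in LAP-tTA livers (-0.73 ± 0.11, adjusted p = 0.000215). TRE-MET livers lay below all LAP-tTA livers for each of these. Gstt1, which conjugates halomethanes, fell by 0.35 (adjusted p = 0.0201). Gstp1, Gstk1, Gsto2, Gstt3, Gstt4, Gstz1, Mgst1 and Mgst2 were not called, with Gstk1 nearest the threshold (-0.22, adjusted p = 0.0562).

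Among the NRF2 target enzymes, 4 of 9 changed, 2 in each direction. Sulfiredoxin (Srxn1), which repairs overoxidised peroxiredoxins, was -0.52, -0.34 and -0.10 in TRE-MET livers and 0.12, 0.32 and 0.47 in LAP-tTA livers. The groups did not overlap (-0.62 ± 0.08, adjusted p = 2.32e-05). Nqo1, a quinone reductase often used as an NRF2 readout, was -2.23, -1.60 and -1.28 in TRE-MET livers against -1.57, -1.03 and -0.99 in LAP-tTA livers, and fell by 0.53 (SE 0.13, adjusted p = 0.0149). Glutathione synthetase (Gss) was higher, at 1.58, 1.73 and 1.84 in TRE-MET livers and 1.31, 1.42 and 1.51 in LAP-tTA livers (0.30 ± 0.06, adjusted p = 0.00542). Heme oxygenase (Hmox1) was 0.47, 0.90 and 1.53 in TRE-MET livers and 0.14, 0.56 and 0.67 in LAP-tTA livers (0.52 ± 0.15, adjusted p = 0.0369), a call lost when any of 4 TRE-MET livers (1, 2, 3 or 5) or of 6 LAP-tTA livers was omitted (adjusted p = 0.0508 to 0.0845). Gclc and Gclm, the catalytic and modifier subunits of glutamate-cysteine ligase, had medians of 3.38 and 3.82 in TRE-MET livers against 3.60 and 3.76 in LAP-tTA livers, and were not called. Glutathione reductase (Gsr), thioredoxin reductase (Txnrd1), the carbonyl reductase Cbr3 and Keap1 were not called either. In a single fit for all groups, with the mouse as a random block, the calls of Nqo1 and Hmox1 were lost (limma adjusted p = 0.479 and 0.266).

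Nfe2l2 itself was 0.57, 0.89 and 1.77 in TRE-MET livers and 1.62, 1.73 and 1.98 in LAP-tTA livers (-0.66 ± 0.15, adjusted p = 0.00848). Its values ran 0.57, 0.72, 0.81, 1.29, 0.89, 1.55 and 1.77 in TRE-MET mice 1 to 7, so that mice 6 and 7 lay near or within the LAP-tTA range. Gsta2 was likewise highest in mice 6 (0.71), 7 (0.02) and 4 (-0.91), against -3.43 to -2.29 in mice 1, 2, 3 and 5. Those last 4 livers had summed intensities of 13 neutrophil and lymphocyte markers of 5.41 to 10.3, against 2.0 to 2.19 in mice 4, 6 and 7 and 1.84 to 2.24 in LAP-tTA livers, and their Kupffer cell and macrophage markers summed to 28.9 to 36.7, against 20.1 to 22.0 in mice 4, 6 and 7. With these 4 livers left out, TRE-MET mice 4, 6 and 7 stood against the 7 LAP-tTA livers, and 13 members were called (background 5.44%). Nfe2l2 (-0.21, adjusted p = 0.383), Gstm2, Gstt1, Gsta3, Nqo1 and Hmox1 were among those that were not. The 4 livers had the lowest Nfe2l2, Gsta2 and Gsta3 values of the group. The loss of the Nfe2l2 and Gsta3 calls therefore followed in part from the choice of livers. The part of these cells in the result was not tested. Hepatocyte markers summed to 762 to 838 in TRE-MET livers and 788 to 825 in LAP-tTA livers. In bulk tissue, fewer cells of a type and less RNA per cell cannot be told apart.

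**Figure D2:**
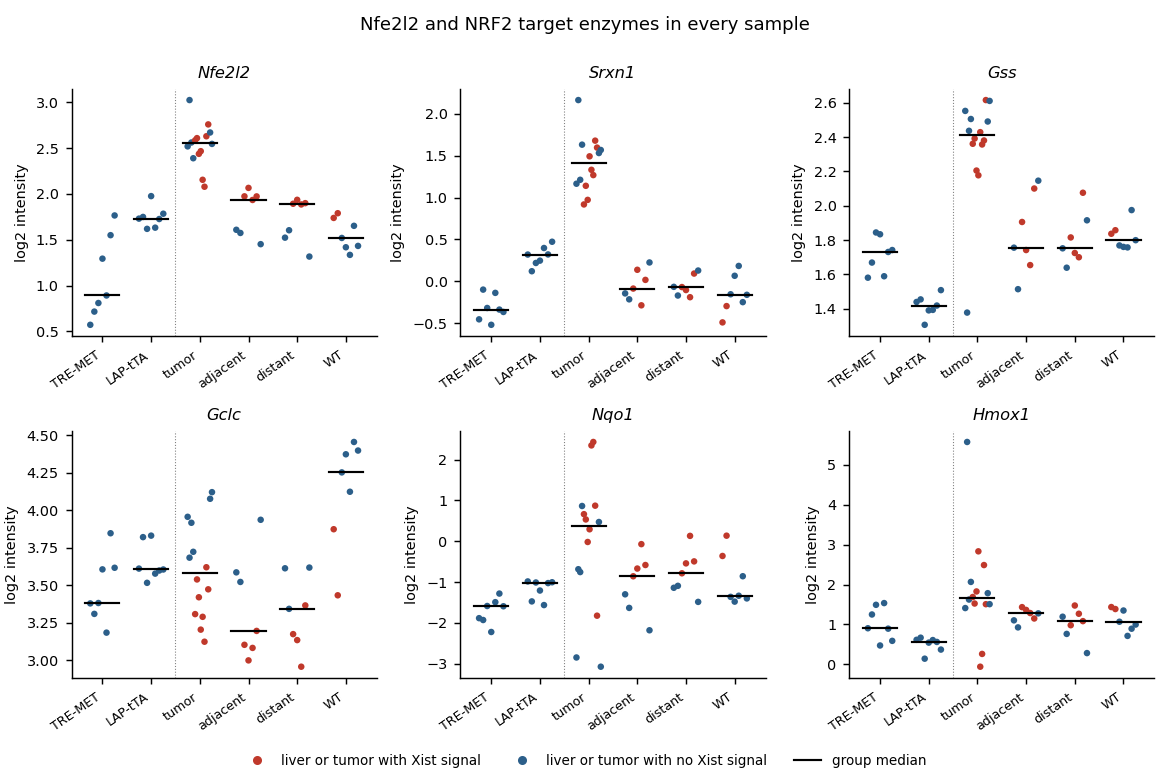
Log2 intensity (y axis) of Nfe2l2 and 5 target enzymes in every sample, with groups along the x axis as TRE-MET, LAP-tTA, tumor, adjacent, distant and WT. Points are samples, red with and blue without Xist signal, and bars are medians. Srxn1 and Nfe2l2 are higher in all 14 tumors than in any WT liver, while Nqo1 spreads from -3.08 to 2.44 over the tumors.

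Non-tumor tissue of the 14-week MET mice differed from WT liver in few members. In distant tissue 6 were called, 1 higher and 5 lower, where 6.84% of all named genes were called (3.33% higher, 3.51% lower). In adjacent tissue 6 were also called, 1 higher and 5 lower, against 9.18% of named genes (4.72% higher, 4.46% lower). Both tissues were set against the same 7 WT livers and came from the same 7 mice. Within livers without Xist signal, 7 members were called in adjacent (background 3.12%) and 8 in distant tissue (background 2.8%), and within those with Xist signal, 4 in adjacent (background 5.16%) and 2 in distant tissue (background 3.39%). The median change over the members was -0.10 in adjacent and -0.12 in distant tissue.

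Gstm5 was the member that rose in both. It was 1.65, 2.04 and 2.16 in adjacent tissue, 1.86, 1.92 and 2.37 in distant tissue and 0.47, 0.63 and 0.79 in WT livers. No liver of either tissue overlapped WT, and the changes were 1.33 ± 0.09 in adjacent (adjusted p = 8.19e-08) and 1.40 ± 0.09 in distant tissue (adjusted p = 2.48e-08). Across the 6 groups its medians ran 3.43 in LAP-tTA, 2.04 in adjacent, 1.92 in distant, 1.32 in tumor, 0.63 in WT and 0.49 in TRE-MET livers. WT and TRE-MET livers overlapped (0.07, adjusted p = 0.699), as did adjacent and distant tissue. In the methods' account the LAP-tTA strain carries 2 copies of LAP-tTa and the MET mice 1, while the label of the TRE-MET mice names only Tre-c-Met. Whether LAP-tTa bears on Gstm5 was not tested.

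Gsta4 was lower in both tissues, at 2.22, 2.97 and 3.52 in adjacent tissue, 2.63, 3.14 and 3.52 in distant tissue and 3.56, 3.68 and 4.02 in WT livers. Neither tissue overlapped WT (adjacent -0.83 ± 0.17, adjusted p = 0.00627, and distant -0.70 ± 0.14, adjusted p = 0.00509), and both calls stood within livers with and without Xist signal (adjacent -1.22 to -0.70, distant -0.98 to -0.65 over the added settings). Gsta2 was -1.11, -0.05 and 0.15 in adjacent, -0.79, -0.28 and 0.20 in distant and -0.00, 0.82 and 1.28 in WT livers (adjacent -1.10 ± 0.21, adjusted p = 0.00365, and distant -1.02 ± 0.16, adjusted p = 0.000983). Gclc, the subunit that limits the rate of glutathione synthesis, was 3.0, 3.19 and 3.94 in adjacent, 2.96, 3.34 and 3.62 in distant and 3.43, 4.25 and 4.45 in WT livers (adjacent -0.78 ± 0.16, adjusted p = 0.00751, and distant -0.81 ± 0.15, adjusted p = 0.00249). Among the livers with Xist signal alone, 4 against 2, Gsta2 was not called in distant (-0.73, adjusted p = 0.132) or adjacent tissue (-0.71, adjusted p = 0.163), nor was Gclc in distant tissue (-0.50, adjusted p = 0.135). In a single fit for all groups, with the mouse as a random block, both Gsta2 calls were lost (limma adjusted p = 0.0965 in adjacent and 0.175 in distant tissue).

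Gstm1 was slightly lower in adjacent (-0.29 ± 0.09, adjusted p = 0.0497) and distant tissue (-0.42 ± 0.10, adjusted p = 0.0175). The call in adjacent tissue was lost with Xist as a covariate and within both sets of livers. It was also lost on omitting any of several single mice (limma adjusted p = 0.0661 to 0.103). That in distant tissue was lost among livers with Xist signal (-0.23, adjusted p = 0.508). Gstm2 was lower in distant tissue (-0.48 ± 0.12, adjusted p = 0.0319) and Gstk1 in adjacent tissue (-0.33 ± 0.09, adjusted p = 0.0362). Neither was called among livers with Xist signal alone, nor Gstk1 among those without. Both calls were also lost on omitting any of several single mice (limma adjusted p = 0.0507 to 0.0694 for Gstm2 and 0.0553 to 0.0764 for Gstk1). Gstt3, a theta form, was not called in the pooled fits. It was lower in adjacent tissue with the Xist covariate (-0.96, adjusted p = 0.00142) and within livers with (-1.04, adjusted p = 0.022) and without Xist signal (-0.90, adjusted p = 0.0421), and in distant tissue with the covariate (-0.70, adjusted p = 0.0133) and without Xist signal (-0.79, adjusted p = 0.0323). Without Xist signal, Gstm6 was lower in adjacent (-0.64, adjusted p = 0.0149) and distant tissue (-0.59, adjusted p = 0.0268) and Gstm2 in adjacent tissue too (-0.79, adjusted p = 0.00159). Nfe2l2 had medians of 1.93 in adjacent, 1.89 in distant and 1.52 in WT livers and was not called. Adjacent and distant tissue of the same mice differed in none of the members (limma, 0 of 34, where 0.0% of named genes were called). At an unadjusted p under 0.05, 1 member passed, and 5 with the mouse as a block.

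Some markers of particular cell types were called in these tissues. In distant tissue 6 of 11 stellate cell and fibroblast markers were lower than in WT and none higher, and in adjacent tissue 1 was lower. They summed to 14.2 to 32.2 in adjacent, 18.1 to 23.4 in distant and 23.6 to 31.1 in WT livers. Of 11 hepatocyte markers 3 were higher in each tissue, with sums of 845 to 897 in adjacent, 811 to 860 in distant and 763 to 820 in WT livers. Of 13 neutrophil and lymphocyte markers 3 were higher in each, with sums of 2.24 to 3.26 in adjacent, 2.34 to 3.90 in distant and 2.07 to 2.53 in WT livers. The part of these cells in the members' changes was not tested.

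Within a group, several members lay apart between livers with and without Xist signal. Ranges did not overlap for 19 of 34 members in WT, 10 in adjacent, 10 in distant and 4 in tumor tissue. The same count was not made over all named genes, and the numbers of livers on each side differ between WT and MET mice. These counts therefore have no background and cannot be set against each other. Gsta4, Gstt2, Gstt3, Mgst3, Nfe2l2 and Nqo1 were higher with Xist signal, and Mgst1 lower, in adjacent, distant and WT livers alike. Gstt3 was 2.20 to 3.33 with and 0.80 to 1.54 without Xist signal in distant tissue, and 3.16 to 3.43 with and 1.82 to 2.36 without it in WT livers. Nqo1 was -0.79 to 0.13 with and -1.49 to -1.09 without in distant tissue, and -0.36 to 0.14 with and -1.48 to -0.86 without in WT livers. Gstp1, the pi class form whose level is known to be higher in male than in female mouse liver, was 4.74 to 4.84 with and 5.38 to 5.87 without Xist signal in distant tissue, and 4.42 to 4.45 with and 5.54 to 6.27 without it in WT livers. In adjacent tissue its ranges overlapped, at 4.73 to 5.38 with and 5.21 to 5.89 without. In tumors, as means of 2 per mouse, Gstp1 was 5.87 to 6.20 with and 5.82 to 6.15 without Xist signal, so that the ranges overlapped. These are descriptions of few mice and were given no test.

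**Figure D3:**
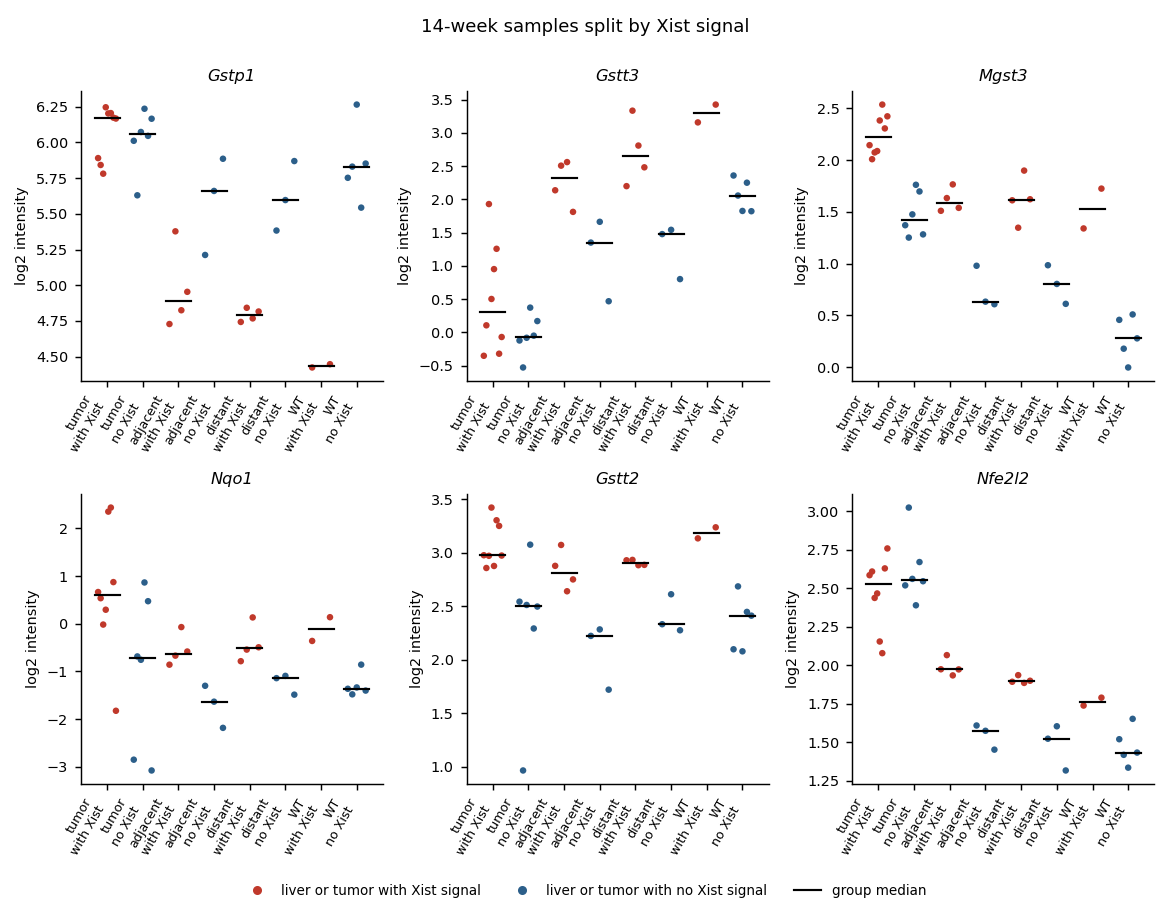
Log2 intensity (y axis) of Gstp1, Gstt3, Mgst3, Nqo1, Gstt2 and Nfe2l2 in the 14-week groups, each split along the x axis into livers with and without Xist signal. Points are samples and bars are medians. Gstp1 lies at 4.42 to 4.45 in the 2 WT livers with Xist signal and at 5.54 to 6.27 in the other 5.

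Tumors differed from WT liver in 19 of 34 members, 12 higher and 7 lower, with the 2 tumors of a mouse averaged. Among all named genes 35.1% were called (17.1% higher, 18.0% lower). The members' median change was 0.24, against -0.04 over all named genes. Groups did not overlap for 11 members, a count without a background, since it was not made over all named genes. The classes divided: 2 alpha and 4 mu genes were higher and none lower, while both omega genes, the kappa and zeta genes and 1 theta gene were lower and none higher. In the microsomal family Mgst3 was higher and Mgst1 lower. Of the 9 target enzymes 4 were higher and 1 lower.

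Gstm2 changed most clearly, with 2.09, 3.83 and 4.13 in the 14 tumors and 0.30, 0.76 and 1.05 in WT livers. All 14 tumors lay above every WT liver (2.97 ± 0.15, 7.82-fold, adjusted p = 4.32e-10), above the distant tissue (3.44 ± 0.15, adjusted p = 1.74e-10) and, as mouse means, above the adjacent tissue (3.34 ± 0.30, adjusted p = 2.25e-06). Gstm3 was 2.36, 4.89 and 5.49 in tumors and 1.66, 2.49 and 3.17 in WT livers (2.24 ± 0.26, adjusted p = 6.38e-06), with 13 of 14 tumors above every WT liver. Gsta1 was -1.17, 0.48 and 3.26 in tumors and -4.21, -2.02 and -0.67 in WT livers (2.86 ± 0.51, adjusted p = 0.000468). It too was above all WT livers in 13 tumors, and reached its highest values, 3.26 and 2.64, in the 2 tumors of mouse 5. Gsta4, lower in non-tumor tissue, was 3.31, 4.29 and 4.98 in tumors and 3.56, 3.68 and 4.02 in WT livers (0.61 ± 0.16, adjusted p = 0.00878). Against adjacent and distant tissue of the same mice it was higher by 1.44 ± 0.22 (adjusted p = 0.000204) and 1.31 ± 0.19 (adjusted p = 0.000104).

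Gstm1 was 4.26, 5.57 and 5.89 in tumors and 4.77, 5.10 and 5.24 in WT livers (0.46 ± 0.12, adjusted p = 0.0102). Gstm5 was 0.42, 1.32 and 2.06 in tumors and 0.47, 0.63 and 0.79 in WT livers (0.72 ± 0.12, adjusted p = 0.000256). Unlike the other mu genes called, Gstm5 was lower in tumors than in adjacent (-0.61 ± 0.13, adjusted p = 0.00267) and distant tissue (-0.69 ± 0.13, adjusted p = 0.00105), calls that were lost among livers with Xist signal (adjacent -0.36, adjusted p = 0.135, and distant -0.49, adjusted p = 0.0693). Mgst3 was 1.25, 2.04 and 2.54 in tumors and -0.00, 0.46 and 1.72 in WT livers, overlapping groups with a change of 1.27 ± 0.26 (adjusted p = 0.00128). Gsta2 had medians of 0.91 in tumors and 0.82 in WT livers (0.35, adjusted p = 0.511), yet was higher in tumors than in adjacent (1.45 ± 0.38, adjusted p = 0.00922) and distant tissue (1.37 ± 0.36, adjusted p = 0.00945), where it was below WT. Among livers without Xist signal Gsta2 was not called against adjacent (0.86, adjusted p = 0.122) or distant tissue (0.63, adjusted p = 0.0548). Gstp1 was likewise not called against WT (0.60, adjusted p = 0.0753) and was higher than in adjacent (0.81 ± 0.16, adjusted p = 0.00116) and distant tissue (0.90 ± 0.17, adjusted p = 0.000655). Within mice, Gstp1 was higher in the tumors of 7 of 7. Against WT it was called with the Xist covariate (0.78, adjusted p = 0.0101) and among livers with Xist signal (1.63, adjusted p = 0.000352), and not among those without (0.18). Without Xist signal its calls against adjacent (0.44, adjusted p = 0.161) and distant tissue (0.41, adjusted p = 0.124) were lost.

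The 6 transferases that were lower in tumors came from the omega, kappa, zeta, theta and microsomal families. Gsto1 was 0.14, 0.93 and 1.83 in tumors and 2.58, 2.62 and 2.95 in WT livers (-1.74 ± 0.15, adjusted p = 2.87e-07). Gstk1, the mitochondrial and peroxisomal form, was 0.95, 3.25 and 3.96 in tumors and 4.38, 4.51 and 4.80 in WT livers (-1.42 ± 0.18, adjusted p = 1.69e-05). Gstz1, the maleylacetoacetate isomerase of tyrosine breakdown, was 2.68, 4.74 and 4.98 in tumors and 5.06, 5.21 and 5.30 in WT livers (-0.59 ± 0.14, adjusted p = 0.00518). Each of these 3, and Mgst1 (-0.43 ± 0.08, adjusted p = 0.000692), lay below every WT liver in all 14 tumors. Gstt3 was -0.53, 0.03 and 1.93 in tumors and 1.82, 2.25 and 3.43 in WT livers (-2.15 ± 0.29, adjusted p = 3.6e-05), with 13 tumors below every WT liver. Gsto2 fell by 0.29 (SE 0.08, adjusted p = 0.0109). Hepatocyte markers summed to 474, 718 and 790 in tumors and 763, 786 and 820 in WT livers, and 4 of the 11 were lower in tumors and none higher. Their part in these results was not tested.

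**Figure D4:**
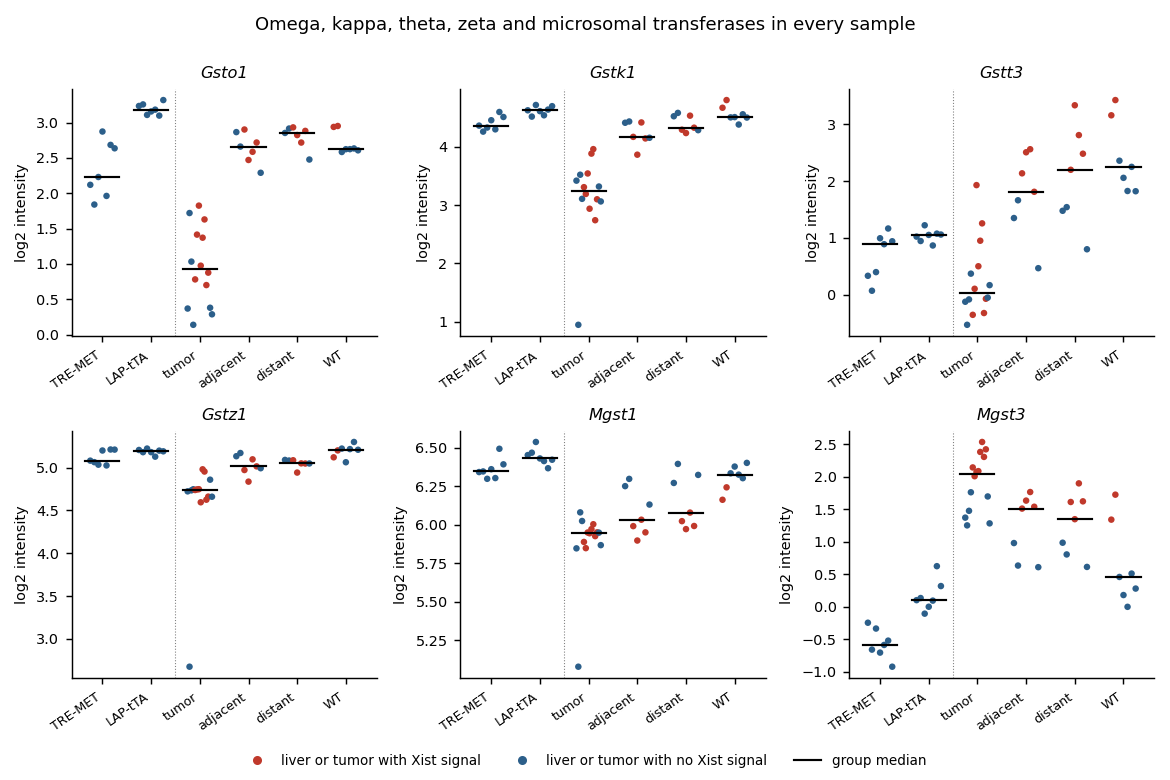
Log2 intensity (y axis) of Gsto1, Gstk1, Gstt3, Gstz1, Mgst1 and Mgst3 in every sample, with groups along the x axis as TRE-MET, LAP-tTA, tumor, adjacent, distant and WT. Points are samples, red with and blue without Xist signal, and bars are medians. Gsto1, Gstk1, Gstz1 and Mgst1 lie lower in all 14 tumors than in any WT liver.

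Srxn1 showed the clearest rise among the target enzymes, with 0.92, 1.41 and 2.16 in tumors and -0.49, -0.16 and 0.18 in WT livers. Tumors and WT livers did not overlap (1.56 ± 0.11, adjusted p = 3.54e-08), nor did tumors and adjacent (1.45 ± 0.11, adjusted p = 3.6e-07) or distant tissue (1.46 ± 0.09, adjusted p = 2e-08). Gss was 1.38, 2.41 and 2.62 in tumors and 1.76, 1.80 and 1.97 in WT livers (0.53 ± 0.08, adjusted p = 0.000135). Txnrd1 was higher by 0.32 ± 0.10 (adjusted p = 0.0235), in the same direction on all 3 of its probe sets. Cbr3 was higher by 0.54 ± 0.18 (adjusted p = 0.0364), a call that was lost without tumor 1b (0.32, adjusted p = 0.1). That call was also lost with only the a or only the b tumors (limma adjusted p = 0.175 and 0.129). Omitting the tumors of mouse 3, 4 or 6 lost it too (limma adjusted p = 0.0638 to 0.0756). Gclc was lower than in WT (-0.53 ± 0.16, adjusted p = 0.0235), at 3.12, 3.58 and 4.12 in tumors and 3.43, 4.25 and 4.45 in WT livers. With the mouse as a block, Gclc was higher in tumors than in adjacent (0.26, adjusted p = 0.00805) and distant tissue (0.29, adjusted p = 0.00649), which without the block was not called.

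Nfe2l2 was 2.08, 2.55 and 3.02 in tumors and 1.34, 1.52 and 1.79 in WT livers (0.98 ± 0.10, adjusted p = 1.47e-06), and all 14 tumors lay above every WT liver. It was also above adjacent (0.73 ± 0.11, adjusted p = 0.000219) and distant tissue (0.81 ± 0.11, adjusted p = 5.97e-05). Its second, dimmer probe set went the other way in tumors (-0.38, adjusted p = 0.00478), while in TRE-MET livers both probe sets were lower (-0.32 on the dimmer, adjusted p = 0.0145). Keap1 had medians of 0.23 in tumors and 0.07 in WT livers and was not called. Of the 8 members whose promoter held the element core, Gstm5, Nfe2l2, Srxn1 and Txnrd1 were higher in tumors than in WT, Mgst1 was lower, and Gclm, Gsta3 and Gstm7 were not called. Of the 21 without it, 7 were higher and 5 lower. In young TRE-MET livers 4 of the 8 and 11 of the 21 were lower.

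Nqo1 and Hmox1 varied widely between tumors and were not called against WT. Nqo1 was -3.08, 0.38 and 2.44 in tumors and -1.48, -1.34 and 0.14 in WT livers (0.90 ± 0.49, adjusted p = 0.186). Its values in the a and b tumors were -2.85 and -0.69 in mouse 1, -0.76 and 0.86 in mouse 2, 0.66 and 0.53 in mouse 3, -0.02 and 0.29 in mouse 4, 2.35 and 2.44 in mouse 5, 0.87 and -1.83 in mouse 6 and 0.47 and -3.08 in mouse 7. Tumors of mice 3, 4 and 5 were alike, while those of mouse 7 differed by 3.55. The median difference between the tumors of a mouse was 1.62 for Nqo1, against a median of 0.205 over the members. With the mouse as a block, Nqo1 was higher in tumors than in adjacent tissue (0.99, adjusted p = 0.0259). Hmox1 was -0.06, 1.66 and 5.57 in tumors and 0.71, 1.07 and 1.44 in WT livers (0.74 ± 0.34, adjusted p = 0.12). The highest value belonged to tumor 1b, and the other 13 reached at most 2.83. Over the members, 28 of 34 had a larger SD over the 14 tumors, tumor 1b included, than over the 7 WT livers (median 0.449 against 0.189). For 26, the widest difference between tumors of a mouse was in mouse 1. These counts were not made over all named genes and so have no background.

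Calls in tumors against WT that held with the Xist covariate, within livers with and without Xist signal and without tumor 1b were those of Gstm2 (2.74 to 3.17), Gstm3 (1.72 to 2.97), Gsta1 (2.02 to 4.03), Gstm5 (0.51 to 0.83), Srxn1 (1.49 to 1.69), Nfe2l2 (0.70 to 1.15) and Gstt3 (-2.79 to -2.10), among others. Without Xist signal 17 members were called (background 27.2%). Of the 19, Gsta4 (0.42), Gstm1 (0.20) and Cbr3 (0.62) were not, and Hmox1 was gained (1.32, adjusted p = 0.0176). With Xist signal, where 4 mice faced 2, 14 were called (background 14.0%), and Gclc, Gsta4, Gsto2, Gstz1, Mgst1, Txnrd1 and Cbr3 were lost while Gstm6 and Gstp1 were gained. Without tumor 1b, Gstt1 (0.28, adjusted p = 0.00511) and Gstm6 (0.78, adjusted p = 0.0137) were also higher.

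Against the non-tumor tissue of the same mice, 20 members differed in tumors from adjacent tissue, 14 higher and 6 lower, where 40.7% of named genes were called (16.7% higher, 24.0% lower), and 22 from distant tissue, 15 higher and 7 lower, where 32.9% were called (16.7% higher, 16.3% lower). Gsta1, Gstm2, Gstm3, Gsta4, Gstp1, Srxn1 and Nfe2l2 were higher in the tumors of 7 of 7 mice in both, and Gsto1, Gsto2, Gstk1, Gstt3 and Gstz1 lower in 7 of 7 in both. In the 3 mice without Xist signal, 12 members were called against adjacent tissue (background 14.8%) and 12 against distant tissue (background 16.3%). Gsta2, Gstm1, Gstm6, Gstp1, Gstz1, Gsto2, Gss and Cbr3 were lost against both, and Gsta3 and Mgst1 against distant tissue. In the 4 mice with Xist signal, 16 were called against adjacent (background 21.6%) and 16 against distant tissue (background 20.7%). Gstm5, Gsto2, Gstz1 and Cbr3 were lost against both, and Mgst1 and Txnrd1 against distant tissue. These comparisons share the tumor samples. The calls came from fits that did not pair the tissues by mouse, and those with the mouse as a block are given at the end.

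**Figure D5:**
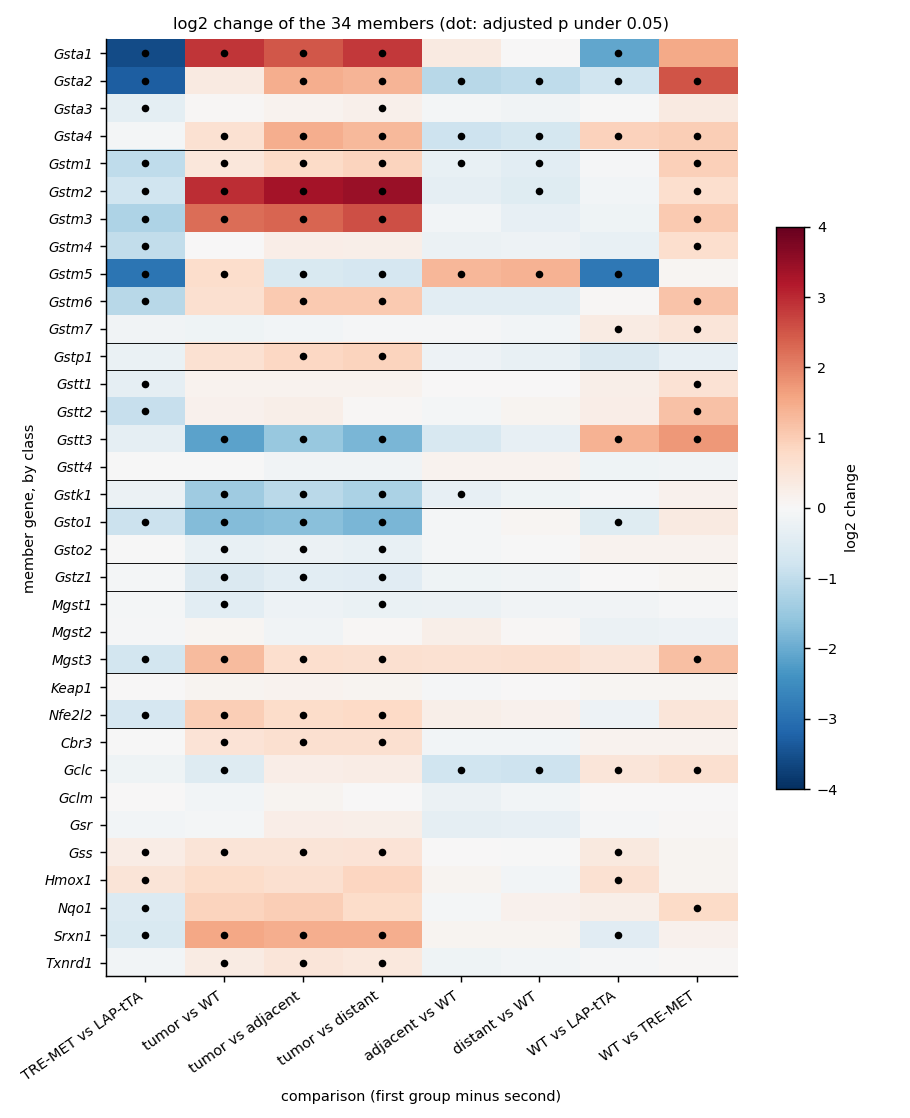
Log2 change of each of the 34 members (rows) in 8 comparisons (columns, first group minus second), with colour for the size and direction and a dot where the limma adjusted p is under 0.05. 6 of the 7 mu class rows are lower in TRE-MET against LAP-tTA livers, and Gstm2, Gstm3 and Gsta1 are higher in tumors against WT.

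The 14-week WT livers were also set against both young groups, of which LAP-tTA is a control and TRE-MET is the MET group. WT differed from LAP-tTA livers in 11 members, 6 higher and 5 lower (background 12.5%, with 7.15% higher and 5.34% lower), and from TRE-MET livers in 14, all higher (background 7.82%, with 4.22% higher and 3.59% lower). Without TRE-MET livers 1, 2, 3 and 5, which leaves mice 4, 6 and 7, 2 of these 14 were called, Gstt3 and Mgst3 (background 2.2%). The livers left out were the lowest of the group for Gsta2 and Gstm3, so the count depends on that choice. Gsta1 was lower in WT than in LAP-tTA livers (-2.07, adjusted p = 0.00134) and Gstm5 as well (-2.85, adjusted p = 4.59e-12). Gsta4 (0.92, adjusted p = 1.16e-07) and Gstt3 (1.38, adjusted p = 0.000157) were higher in WT. Among WT livers without Xist signal, Gstm6 (0.39, adjusted p = 0.00926) and Nfe2l2 (-0.27, adjusted p = 0.0329) were called against LAP-tTA too, Gsta1 was called against TRE-MET (1.82, adjusted p = 0.0188) and Nqo1 was not (0.43, adjusted p = 0.12). Over all WT livers the dimmer probe set of Nfe2l2 went the other way against LAP-tTA (0.29, limma adjusted p = 0.0159). It was also higher than in TRE-MET livers (0.61, limma adjusted p = 0.000632), where the brighter one was not called. Cells differed as well. Of 12 Kupffer cell and macrophage markers 11 were higher in WT than in LAP-tTA livers and none lower, with sums of 26.8 to 39.8 in WT and 19.0 to 25.6 in LAP-tTA livers. Of 10 endothelial markers 4 were higher and 1 lower, with sums of 18.0 to 23.4 in WT and 15.8 to 18.2 in LAP-tTA livers. Their part in these differences was not tested. Age, genotype label and, for some mice, Xist signal differ between these groups and cannot be told apart.

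The difference between MET and control non-tumor liver was compared between young and 14-week mice. The value tested was the change in young livers (TRE-MET minus LAP-tTA) less that at 14 weeks (distant minus WT). It was called for 12 members, 10 below and 2 above 0, where 10.1% of named genes were called (4.95% above, 5.14% below). The largest was Gstm5 (-4.33 ± 0.17, adjusted p = 1.46e-18), lower in young TRE-MET livers and higher in distant tissue against their own controls. Gsta1 followed (-3.60 ± 0.55, adjusted p = 2.44e-05), with a change of -3.58 in young livers and 0.02 in distant tissue. Srxn1 (-0.72 ± 0.12, adjusted p = 0.000106), Gsto1 (-0.95 ± 0.17, adjusted p = 0.000174), Gstt2 (-1.01 ± 0.22, adjusted p = 0.00225) and Mgst3 (-1.36 ± 0.30, adjusted p = 0.00239) had the same sign. Among livers without Xist signal 9 were called (background 7.73%), and Gss, Gsta2, Gstm3 and Nfe2l2 were not, while Gsta4 was gained (0.90, adjusted p = 0.0236). Without TRE-MET livers 1, 2, 3 and 5, also 9 were called (background 9.23%). Gsta2 (-0.60, adjusted p = 0.297), Gstm3 (-0.34, adjusted p = 0.573), Gstm4 (-0.59, adjusted p = 0.105) and Nfe2l2 (-0.38, adjusted p = 0.189) were then lost. The livers left out were the lowest of the group for Gsta2, Gstm3 and Nfe2l2, so these losses followed in part from that choice. The dimmer probe set of Nfe2l2 was not called (-0.16, adjusted p = 0.454). Both the MET mice and the controls carry different labels at the young and older ages. The labels cannot be told apart from age here.

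Further NRF2 targets outside the set, a list of 24 genes, were counted in the same comparisons. In TRE-MET against LAP-tTA livers 10 of the 24 were lower and none higher (9.36% of all named genes were called there, 5.04% lower), led by Ugdh, the dehydrogenase that makes UDP-glucuronate (-0.74, adjusted p = 1.47e-06), aldehyde oxidase Aox1 (-1.93, adjusted p = 1.17e-05) and the efflux pump Abcc3 (-1.42, adjusted p = 5.92e-05). In tumors against WT, 11 were higher and 4 lower, where 35.1% of all named genes were called, among them biliverdin reductase Blvrb (1.19, adjusted p = 1.94e-08), ferritin heavy chain Fth1 (0.83, adjusted p = 1.33e-07), the efflux pump Abcc4 (3.51, adjusted p = 3.71e-07) and, lower, Abcc3 (-2.96, adjusted p = 5.99e-08). Abcc3 was lower in adjacent (-1.37, adjusted p = 8.2e-05) and distant tissue (-1.22, adjusted p = 0.000262) too, where 1 of the 24 was higher and 3 lower in each. Of 12 NRF2 regulators and partners 7 were higher in tumors and none lower (17.1% of named genes were higher), with the small MAF protein Maff furthest (2.39, adjusted p = 6.49e-10).

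The xenobiotic nuclear receptors and their targets were counted as lists too. Of 7 receptors, TRE-MET livers had 2 higher and 1 lower than LAP-tTA livers, tumors had 2 higher and 5 lower than WT, and adjacent and distant tissue had 2 lower each. Of 9 targets of CAR, PXR and AHR, 1 was higher and 3 lower in TRE-MET livers, 2 higher and 2 lower in tumors, and 3 lower in each of adjacent and distant tissue. Cyp2b10, the usual CAR target, was lower in TRE-MET against LAP-tTA livers (-1.97, adjusted p = 4.86e-06) and in tumor (-5.17, adjusted p = 2.31e-09), adjacent (-3.01, adjusted p = 0.000199) and distant tissue (-2.29, adjusted p = 0.000296) against WT. Nr1i3, which encodes CAR, was lower in all 4 comparisons (-0.36 in TRE-MET livers, and -1.78, -1.09 and -0.88 in tumor, adjacent and distant tissue). Cyp2c55 was lower in TRE-MET livers (-1.86, adjusted p = 3.24e-07) and higher in tumors (4.71, adjusted p = 1.19e-08). Of 20 genes of glutathione and sulfur amino acid turnover, 2 were higher and 11 lower in tumors against WT (18.0% of named genes were lower), among them cystathionine beta-synthase (Cbs, -1.52, adjusted p = 3.45e-06). Markers of other liver cells in tumors are read against the 35.1% of named genes called there: 5 of 13 neutrophil and lymphocyte markers were lower and none higher, 6 of 12 Kupffer cell markers were lower and 1 higher, 5 of 10 endothelial markers were lower and 2 higher, 5 of 11 stellate cell markers were higher and 3 lower, and 3 of 9 cholangiocyte markers were higher and 1 lower. Summed endothelial markers were 7.35 to 25.1 in tumors and 18.0 to 23.4 in WT livers, and summed cholangiocyte markers 3.22 to 29.5 in tumors and 2.68 to 3.32 in WT livers. Their part in the members' changes was not tested.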

How the data were processed

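Livers were profiled on a custom Affymetrix array. The deposited table holds linear intensity values that the authors made with RMA, per the submitters' processing notes (version not given in the sources used here), at a mean of 1 in each sample, and all 49 columns were matched to samples by label. Intensities were taken to log2 with no constant. Probe sets were named from the platform annotation (30342 with 1 symbol, 13339 with none, 6202 symbols updated), and the brightest stood for each gene. The accession of 32 of the 34 probe sets used matched the gene.

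Groups came from the labels, and tumors entered as 7 mouse means. Tests were limma fits (version 3.58.1 in R 4.3.3) on the groups compared, two-sided, with Benjamini-Hochberg adjustment over 43681 probe sets and calls at an adjusted p under 0.05. The methods were tested on simulated data. Tables and figures used Python 3.11.15 with pandas 2.3.3, numpy 2.4.6, scipy 1.17.1 and matplotlib 3.10.9. The members and gene lists were chosen with earlier results of these data known. A member was named if called, values per group were given for the 12 members with the smallest p among changes of at least 1 on the log2 scale and for the 9 target enzymes, Nfe2l2 and Keap1, some other members were added after their values were seen, and of each other list up to 4 genes with the smallest p were named. Same-numbered tumor, adjacent and distant samples are from the same mouse (correlation of deviations 0.364 to 0.595 for adjacent and distant, 0.125 to 0.384 for tumor and distant, 0.0336 to 0.341 for tumor and adjacent tissue), so a fit with mouse as a block was set beside the main one. The alternatives were another normalization, equal medians, an added constant, a stricter threshold, the methods' t-test on the same values, one fit for all groups, and each mouse left out in turn. The number of arrays limits the precision, and no dates or slides were given to test as batches. Apart from the mice, nothing in the labels says how samples were handled.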

Additional observations from a re-analysis of the deposited data

Results flagged for a closer look

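In the 6 groups of 7 mice, 204 sets of a member in a group were tested for a mouse lying apart from the rest (a gap to the next mouse too wide for the group's range at the 95% level of Dixon's test), and 14 were found, where chance gives about 1 in 20. In tumors, mouse 1 lay apart for Gsta3 (5.16), Gstm2 (2.97), Gstm7 (1.60), Gstt1 (3.97), Gstz1 (3.70), Mgst1 (5.46) and Mgst2 (-3.56), as means of its 2 tumors, of which tumor 1b stood apart over the whole array. Mouse 5 lay apart for Gsta1 (2.95) and Gclm (4.01). In adjacent tissue Gstm2 was far above the rest in mouse 4 (2.20) and Keap1 below it in mouse 6 (-0.17), and in distant tissue Gstz1 was lowest in mouse 4 (4.94). Among TRE-MET livers Gclm was lowest in mouse 5 (3.64) and Keap1 highest in mouse 3 (0.46).

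The change between MET and control non-tumor liver differed between the young and 14-week mice, by a test of the difference itself, for 12 members. The labels of the MET mice and of the controls differ between these ages too, and cannot be told apart from age. The difference (young less 14 weeks) was -4.33 for Gstm5, -3.60 for Gsta1, -2.29 for Gsta2, -1.36 for Mgst3, -1.01 for Gstt2, -0.95 for Gsto1, -0.90 for Gstm3, -0.83 for Nfe2l2, -0.78 for Gstm4, -0.72 for Srxn1, 0.32 for Gss and 0.64 for Gclc. Without TRE-MET livers 1, 2, 3 and 5 the difference was no longer called for Gsta2 (-0.60), Gstm3 (-0.34), Gstm4 (-0.59) and Nfe2l2 (-0.38). Those livers were the lowest of the group for Gsta2, Gstm3 and Nfe2l2. The dimmer probe set of Nfe2l2 was not called in any case (-0.16). All these changes are on the log2 scale.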

How the results depend on the processing

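Of 128 calls of a member in a comparison, 107 stayed calls in the same direction with each mouse left out in turn, and 61 under every other alternative run, and none reversed. With 1 mouse left out, the members called ran 16 to 19 in TRE-MET against LAP-tTA livers, 5 to 8 in distant and 4 to 7 in adjacent tissue against WT, 17 to 21 in tumors against WT, 17 to 22 against distant and 16 to 21 against adjacent tissue, 0 in adjacent against distant tissue, 10 to 13 in WT against LAP-tTA, 12 to 17 in WT against TRE-MET livers and 11 to 14 for the difference between ages. Counts moved by over 1.5 times in few settings. Livers with Xist signal alone gave 2 calls in distant tissue, and those without gave 12 (8 higher, 4 lower) in tumors against distant and 12 (8 higher, 4 lower) against adjacent tissue. With sample medians set equal, 10 members were called in adjacent tissue against WT (1 higher, 9 lower). WT against TRE-MET livers gave 7 at an adjusted p under 0.01, 9 by the methods' t-test after Benjamini-Hochberg adjustment and 2 without TRE-MET livers 1, 2, 3 and 5. With the replicate block, 21 members were called in tumors against distant and 23 against adjacent tissue, where the pairs are mice and where Gsta3 (adjusted p = 0.0504) and Mgst1 (adjusted p = 0.0578) were lost against distant tissue and Gsr (0.27, adjusted p = 0.038) was gained against adjacent tissue. In the other comparisons equal numbers mark different mice. There the block gave 17 calls in TRE-MET against LAP-tTA livers, 5 in distant, 4 in adjacent and 20 in tumor tissue against WT, 11 in WT against LAP-tTA and 13 in WT against TRE-MET livers. Depth is not defined for these arrays, and for Gstt4 and Mgst2 the dim signal limits what could be seen.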
